A study of Mus musculus with 10 samples.

Results

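Autophagy and antioxidant defence genes were followed across REST ChIP-seq peak lists of mouse cortex. The set held 39 genes of the 26089 RefSeq genes with a curated transcript outside chromosome Y: 22 genes of the autophagy machinery and 17 genes of antioxidant defence, chosen by their known roles. The choice was made with earlier results of these data known. A peak was assigned to a gene when it overlapped the gene body or came within 5 kb of an annotated start site (mm10 coordinates).

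The study asked where REST binds in the cortex of 3xTg mice, a model of Alzheimer's disease, at an age of early pathology. Wild-type (WT) littermates were compared with 3xTg animals, whose strain mixes C57BL/6J with 129Sv/Ev and combines a PS1 mutation knocked into the endogenous gene with transgenes for mutant APP (APPSwe) and mutant tau (tauP301L). All mice were 11-month-old females, and each genotype had 4 ChIP replicates, each made from 4 pooled cortices, and 1 input library. The peaks of the 4 replicates of a genotype were deposited as a combined list, so no peak has a replicate spread, and the lists allow no test between the genotypes. Because the cortex was bulk tissue, REST bound in few cells and weak binding in many cells cannot be told apart, nor can neurons and glia.

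REST, the RE1-silencing transcription factor, binds a long DNA element called RE1 and recruits corepressor complexes, and it is best known for silencing neuronal genes outside mature neurons. Autophagy encloses cytoplasmic cargo in a double membrane that is built by the ATG proteins and delivered to the lysosome, a route on which long-lived neurons depend for the clearance of protein aggregates and damaged mitochondria. Antioxidant defence removes superoxide and peroxides through dismutases, catalase, glutathione peroxidases, peroxiredoxins and the thioredoxin system, and many of its genes are induced by NRF2, which KEAP1 holds in check.

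Without chromosome Y, the WT list held 3006 peaks and the 3xTg list 5077. Fold enrichment, the ratio of the ChIP signal at the summit to the local background, began at 6.0 in the WT list and at 8.50 in the 3xTg list, so the lists do not share a threshold, and both begin above the filter on fold enrichment stated in the study's methods. Read depth is not given in the lists, and depth and genotype cannot be told apart where a peak is in a single list.

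Of the 39 genes, 10 had a WT peak (25.6%), beside 9.30% of all RefSeq genes and 10.3% of protein-coding genes. A 3xTg peak was found at 15 of the 39 (38.5%), beside 14.2% of all genes and 15.7% of protein-coding genes. Both lists marked 9 of them, 6 had a 3xTg peak and no WT peak (15.4%, beside 6.42% of all genes and 7.04% of protein-coding genes), 1 had a WT peak and no 3xTg peak, and 23 had none. A peak in either list was found at 16 of the 39, beside 15.7% of all genes and 17.3% of protein-coding genes. The shares of all genes marked in both lists or in WT alone were not computed. The set was chosen with earlier results of these data known, so these shares describe it and test nothing. The counts moved with the thresholds of the lists. At fold enrichment of at least 8.50 in both lists, a setting chosen after seeing the data, 3 of the 39 genes had a WT peak (beside 3.01% of all genes) and 12 a 3xTg peak alone, and at fold enrichment over 10 in both lists 1 had a WT peak (beside 1.91%), whereas with the 3xTg list shortened to its 3006 strongest peaks 9 had a 3xTg peak (beside 8.82%) and 2 a 3xTg peak alone. The share of all genes with a 3xTg peak alone was not computed at these settings. The counts of 12 and 2 therefore cannot be set against all genes. Within the set, autophagy genes carried a 3xTg peak in 10 of 22 cases and a WT peak in 6, and antioxidant genes in 5 and 4 of 17. The background share depended on the type of promoter. Among protein-coding genes whose promoter is CpG-rich (observed over expected CpG of at least 0.6), 15.8% had a WT peak, 23.5% a 3xTg peak and 10.5% a 3xTg peak alone. Promoter sequence was at hand for 33 of the 39 genes, and 27 of these were CpG-rich, against 52.5% of protein-coding genes. Of those 27, 9 had a WT peak (33.3%), 11 a 3xTg peak (40.7%) and 3 a 3xTg peak alone (11.1%), the last being close to the background of 10.5%.

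The 39 genes held 11 WT peaks and 16 3xTg peaks. Of the 16 3xTg peaks, 9 overlapped a WT peak by at least 1 base and 7 were 3xTg-only, beside 51.0% 3xTg-only peaks in the whole list. Of the 11 WT peaks, 10 were shared and 1 was WT-only, beside 16.7% WT-only peaks in the whole list. The 3xTg-only peaks were 6 of the 11 3xTg peaks at autophagy genes and 1 of the 5 at antioxidant genes, a difference that was not tested. The number of 3xTg-only peaks at the 39 genes was 13 at fold enrichment of at least 8.50 in both lists and 2 with the 3xTg list shortened to the length of the WT list. The 51.0% belongs to the full lists, and the 3xTg-only share of the whole list was not computed at these settings. Fold enrichment of the 3xTg-only peaks at these genes ran from 8.54 to 12.4, and that of Atg12 alone was above the median of the 3xTg list, 10.84.

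**Figure D1:**
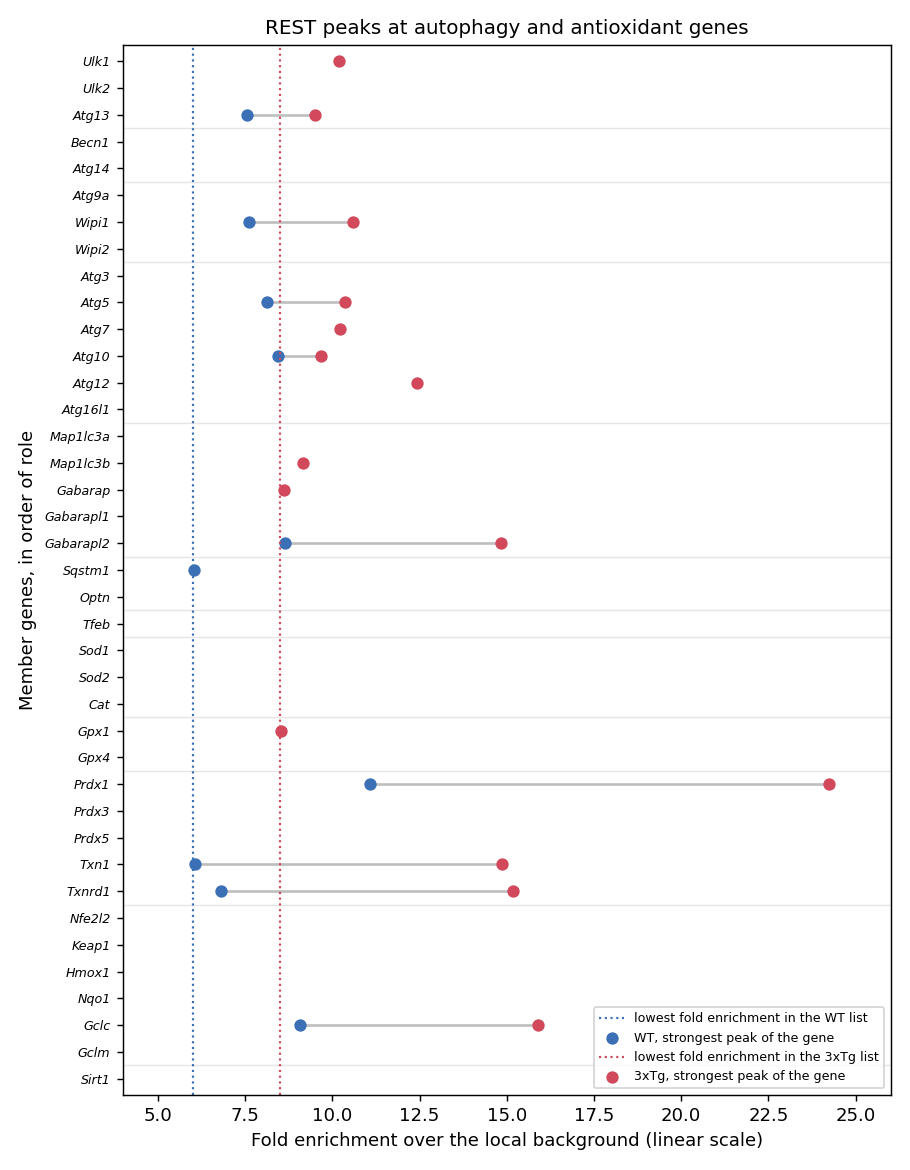
Fold enrichment (linear axis) of the strongest REST peak at each of the 39 genes, WT in blue and 3xTg in red, with no point where a list has no peak; dotted lines mark the lowest fold enrichment of each list (6.0 and 8.50). A grey line joins the strongest WT and 3xTg peaks of a gene, which overlap at each joined gene except Atg10, and Prdx1 has the highest value in both lists (11.1 and 24.2).

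Among the initiation genes, Ulk1 encodes the kinase that starts autophagosome formation and Atg13 its regulatory partner. At the Ulk1 start site lay a peak of the 3xTg list alone, chr5:110809849-110810531, which had a fold enrichment of 10.2 and rank 3060 of 5077. The nearest WT peak was 388 kb away. Atg13 had a shared peak over its start site, at chr2:91710460-91711103 in WT (fold enrichment 7.56, rank 1296 of 3006) and chr2:91710383-91711334 in 3xTg (9.50, rank 3660). This peak spans the divergent start sites of Atg13 and Harbi1. The WT summit was 60 bases from the Harbi1 start and 320 bases from that of Atg13. The 3xTg summit was nearest to the Atg13 start, at 125 bases, so the peak cannot be assigned to either gene alone. Ulk2, a paralogue of Ulk1, had no peak, and the nearest was 74.8 kb from its start site.

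Neither nucleation gene had a peak. Becn1, a subunit of the class III PI3-kinase complex, was 206 kb from the nearest peak, and Atg14, which directs that complex to the site of autophagosome formation, was 42.1 kb away. Of the genes for membrane supply and for reading the lipid PI3P, Wipi1 alone had a peak. WIPI1 binds PI3P on the growing membrane, and its gene had a shared peak over and upstream of the start site, at chr11:109611318-109612248 in WT (fold enrichment 7.60, rank 1281) and chr11:109611176-109612479 in 3xTg (10.6, rank 2673). The summits lay 579 and 588 bases upstream of the start. Atg9a, which encodes the transmembrane scramblase of the pathway, and Wipi2, whose product recruits ATG16L1, were 66.6 kb and 186 kb from the nearest peak.

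The conjugation genes, which attach ATG8 proteins to lipid, were marked in 4 of 6 cases in 3xTg and 2 in WT. Atg5, whose product is joined to ATG12, had a shared peak over its start site, at chr10:44267817-44268624 in WT (fold enrichment 8.13, rank 1065) and chr10:44267647-44269035 in 3xTg (10.4, rank 2904), with both summits in the 5′ UTR. Atg10, the E2-like enzyme of the ATG12 conjugation, had a shared peak over its start site, at chr13:91223445-91224071 in WT (8.45, rank 962) and chr13:91223140-91224861 in 3xTg (9.24, rank 4023). A further peak at Atg10, chr13:91206728-91207112, was 3xTg-only (9.67, rank 3560) and lay in an intron with its summit 17067 bases from the start. Atg7, the E1-like enzyme shared by both conjugation systems, had a 3xTg-only peak at chr6:114670371-114671376 (10.2, rank 2987). Atg7 has 3 annotated start sites, and this peak covered the most internal of them, within an intron of the longer transcripts. Atg12, the ubiquitin-like modifier itself, had the highest 3xTg-only value among the 39 genes, 12.4 at chr18:46741087-46741878 (rank 1745), beside the divergent start site of Ap3s1. Atg3, the E2-like enzyme of ATG8 lipidation, and Atg16l1, which places the conjugation complex on the membrane, were the farthest from a peak, at 477 kb and 787 kb.

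The ATG8 family proteins coat the autophagosome and bind cargo receptors, and 3 of their 5 genes had a 3xTg peak while Gabarapl2 alone had WT peaks. Gabarapl2 had a WT peak over its start site and another just downstream, chr8:111939844-111940842 (fold enrichment 7.16, rank 1636) and chr8:111941012-111941770 (8.64, rank 898). In 3xTg the same peak overlapped both, chr8:111939837-111941724 (14.8, rank 1097), with its summit 27 bases from that of the stronger WT peak, in an intron 697 bases from the start. At Gabarap, the start site fell within a 3xTg-only peak, chr11:69990608-69992302, near the bottom of the list (8.62, rank 4968). Map1lc3b, which encodes LC3B, had a 3xTg-only peak upstream, chr8:121585082-121586023 (9.17, rank 4094), whose edge was 4415 bases from the start site and so just inside the 5 kb limit. Gabarapl1 was the gene closest to the limit from outside, with a peak 9.93 kb from its start, and Map1lc3a was 105 kb from any peak.

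Sqstm1 encodes p62, a cargo receptor that is itself degraded by autophagy and that competes with NRF2 for KEAP1. It was the only gene of the 39 with a WT peak and no 3xTg peak, chr11:50209811-50211296, over the start site with the summit in a coding exon. Its fold enrichment of 6.04 (rank 2970 of 3006) was close to the lowest of the WT list and under the lowest of the 3xTg list, 8.50. The values of the lists are not on 1 scale, since 99.5% of all overlapping pairs were higher in 3xTg, with a median ratio of 1.70. Whether the missing 3xTg peak is a difference between the genotypes was not tested. Optn, another cargo receptor, and Tfeb, the transcription factor that drives lysosomal and autophagy genes, had no peak within 98.7 kb and 129 kb of a start site.

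**Figure D2:**
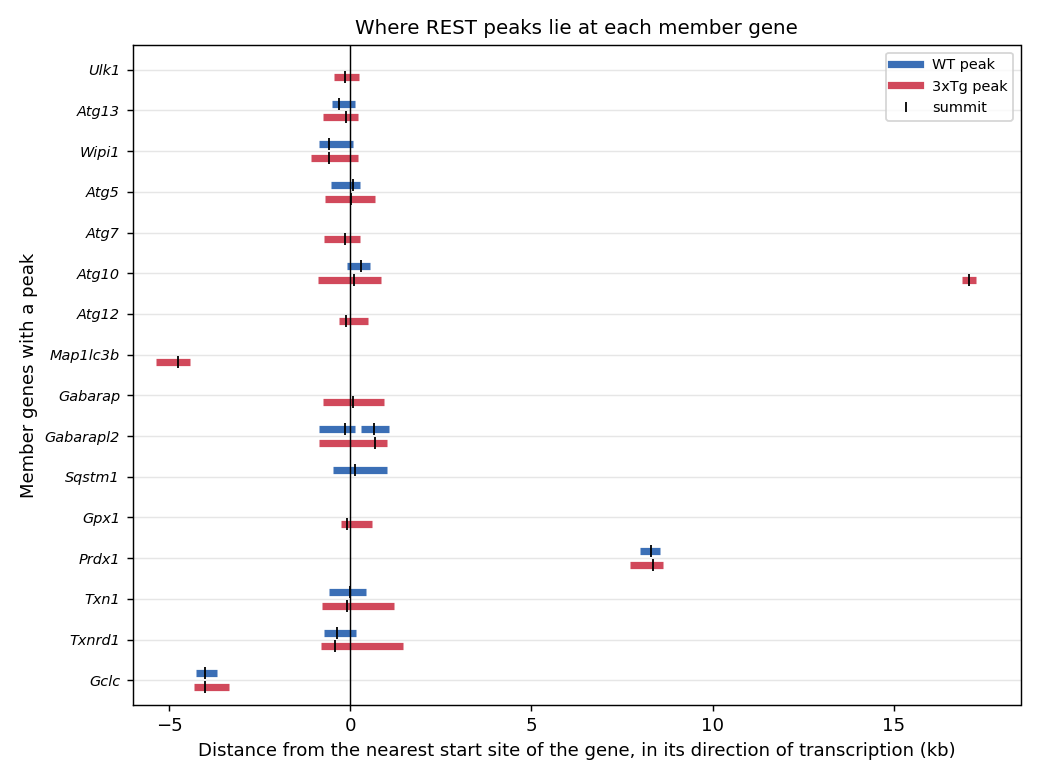
Position of each WT (blue) and 3xTg (red) peak relative to the nearest start site of its gene, in kb along the direction of transcription, with summits as black ticks. At 13 of the 16 genes a peak covered the start site, while the summits of Map1lc3b and Gclc lay 4760 and 4018 bases upstream and that of Prdx1 8305 bases inside the gene (WT, or 3xTg for Map1lc3b).

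None of the genes for superoxide removal or catalase had a peak. Sod1, the cytosolic copper-zinc dismutase, was 232 kb from the nearest, Sod2, the mitochondrial manganese dismutase, 91.0 kb, and Cat, which breaks down hydrogen peroxide in peroxisomes, 276 kb. Of the glutathione peroxidases, Gpx1 had its start site inside a 3xTg-only peak, chr9:108338836-108339683, with a fold enrichment of 8.54 and rank 5034 of 5077, almost at the end of the list. Gpx4, which reduces lipid peroxides, was 61.0 kb from the nearest peak.

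Of the peroxiredoxin and thioredoxin genes, 3 of 5 had a shared peak, and Prdx1 had the strongest peak of the 39 genes in both lists. Prdx1, a cytosolic peroxidase that passes electrons from thioredoxin to hydrogen peroxide, had a shared intronic peak, chr4:116693593-116694142 in WT (fold enrichment 11.1, rank 435 of 3006) and chr4:116693332-116694240 in 3xTg (24.2, rank 269 of 5077). These ranks place it in the top 14.5% of the WT list and the top 5.30% of the 3xTg list, and the latter was the only peak at the 39 genes in the top 10% of either list. Its summits, 42 bases apart, lay 8305 and 8347 bases inside the gene. The start site of another gene, AV051173, was nearer to them, at 7882 and 7924 bases. Txn1, thioredoxin itself, had a shared peak over its start site, with fold enrichment 6.05 and rank 2846 at chr4:57955980-57957004 in WT and 14.8 and rank 1086 at chr4:57955204-57957180 in 3xTg. Txnrd1, the reductase that recharges thioredoxin with NADPH, had a shared peak at chr10:82858487-82859371 in WT (6.81, rank 1926) and chr10:82858397-82860662 in 3xTg (15.2, rank 1031). Txnrd1 has 3 annotated start sites, the peak was at the internal ones, and the start of the lncRNA gene Gm38560 on the other strand was 165 bases from the WT summit. The nearest Txnrd1 start was 363 bases from the WT summit. From the 3xTg summit the distances were 219 bases to Gm38560 and 417 to Txnrd1, so the peak cannot be assigned to either gene alone. Prdx3 and Prdx5, peroxiredoxins found in mitochondria, were 293 kb and 12.5 kb from the nearest peak.

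Of the 6 genes of the NRF2 pathway, Gclc alone had a peak. GCLC is the catalytic subunit of the enzyme that limits glutathione synthesis, and the shared peak lay upstream of the gene, chr9:77750272-77750852 in WT (fold enrichment 9.08, rank 781) and chr9:77750220-77751180 in 3xTg (15.9, rank 911), with summits 4018 and 4013 bases before the start site. Nfe2l2, which encodes NRF2, was 44.3 kb from the nearest peak and Keap1, its inhibitor, 51.1 kb. The NRF2 targets Hmox1 (heme oxygenase 1), Nqo1 (a quinone reductase) and Gclm (the modifier subunit of the GCLC enzyme) were 59.6, 109 and 97.7 kb away. Sirt1, a deacetylase that acts on autophagy proteins and stress regulators, was 43.3 kb from the nearest peak. Over all 23 genes without a peak, the distance to the nearest peak of either list had a median of 97.7 kb.

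In the 10 overlapping pairs of WT and 3xTg peaks at these genes, fold enrichment was higher in the 3xTg list each time, by a median ratio of 1.73. The same was true of 99.5% of all 2504 pairs, with a median ratio of 1.70, so a higher 3xTg value does not set the genes apart. Txn1 had the highest ratio of the set, 2.45, above 95.5% of all pairs, followed by Txnrd1 at 2.23 and Prdx1 at 2.19. Atg10 and Atg13 were at the other end with 1.09 and 1.26, and only 1.16% of all pairs had a lower ratio than Atg10. Ranks in the lists are not on a common scale, since the 3xTg list is longer and begins at a higher fold enrichment. Counted from the top, Prdx1, Txn1, Txnrd1 and the weaker WT peak of Gabarapl2 had a better rank in the 3xTg list. Atg10, Atg13, Atg5, Wipi1, Gclc and the stronger WT peak of Gabarapl2 had a worse one. With rank taken as a percentage of list length, Gclc and the stronger WT peak of Gabarapl2 were also placed better in 3xTg. By that measure 6 of the 10 pairs were placed better in 3xTg, beside 77.2% of all pairs. Atg10, Atg13, Atg5 and Wipi1 were placed worse by either measure. Neither the split between these genes nor the difference from all pairs was tested.

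The peaks at the 39 genes were mostly promoter peaks, to which the choice by distance from a start site contributes. Of the 11 WT peaks 9, and of the 16 3xTg peaks 12, came within 1 kb of a start site of their own gene. In the whole lists, 38.4% of WT and 33.7% of 3xTg peaks came within 1 kb of any start site. The ratio of observed to expected CpG had a median of 0.73 in the WT peaks and 0.69 in the 3xTg peaks of the set, and of 0.36 and 0.29 over all peaks. Low CpG ratios in 3xTg were found at the intronic Prdx1 and Atg10 peaks, 0.22 and 0.14, and at the Atg7 peak, 0.19, although the last covers a start site.

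Matches to the RE1 consensus of 20 bases were counted at these genes and in the whole lists. With at most 5 mismatches on either strand, 1 of 11 WT peaks (9.09%) and 1 of 16 3xTg peaks (6.25%) held a match, both at Atg13, beside 7.09% of all WT and 6.09% of all 3xTg peaks. The share in sequence outside peaks was not computed, so these percentages do not measure enrichment. By its own motif analysis, the paper reports RE1 as highly enriched in the peaks of both genotypes. The closest match had 7 or 8 mismatches in the Prdx1, Txn1, Txnrd1 and Gclc peaks. Textbook REST targets showed what the scan finds where RE1 is known: 9 of their 10 WT peaks and 10 of their 13 3xTg peaks held a match. The closest matches at Atg13, Gabarapl2 and Prdx1 are given after those of Vgf and Chgb, which encode secreted granule proteins of neurons, with the bases the consensus has in capitals (GRCm38.p6, RefSeq; plus strand for Vgf, Atg13 and Gabarapl2, minus strand for Chgb and Prdx1). They lie at chr5:137030274-137030293, chr2:132781795-132781814, chr2:91710806-91710825, chr8:111941389-111941408 and chr4:116694024-116694043 in the order given.
Vgf, 2 mismatches: GGCGCTGTCCAgcGTGCTGA
Chgb, 2 mismatches: GGAGCTGTCCggGGTGCTGA
Atg13, 5 mismatches: cGCGgTGgCCgaGGTGCTGA
Gabarapl2, 7 mismatches: GGtGCTGTCCAgGGgcaccA
Prdx1, 8 mismatches: GcAGCaGTCagTGaTtCcaA
The Atg13 match keeps the right-hand block and departs in the left, while Gabarapl2 keeps the left-hand block. Both lie outside exons of their genes, the former between Atg13 and Harbi1 and the latter in an intron.

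Short motifs were counted in RefSeq promoters (300 bases around each start, GRCm38.p6), of which 40 belonged to 33 of the 39 genes. The antioxidant response element core TGACNNNGC, the letters bound by NRF2 with its small MAF partners, was found on either strand in 9 of the 40 promoters (22.5%), beside 12.4% of all 32619 promoters. It was present in 6 of 20 promoters of antioxidant genes, those of Gclm, Nfe2l2, Prdx1, Sirt1, Sod1 and Txnrd1, and in 3 of 20 of autophagy genes, those of Atg13, Map1lc3b and Ulk2. The E-box CACGTG, a palindrome that TFEB recognises within a longer element, was in 5 of the 40 promoters (12.5%, beside 7.20% of all), at Atg14, Atg3, Atg5, Atg7 and Sirt1. The left block of RE1, GCTGTCC, was in 3 (7.50%, beside 6.60%) and its right block, GGTGCT, in 5 (12.5%, beside 16.3%). These letters can overlap, as in GGTGCTGTCC, and a match describes the sequence without showing that a factor binds there. Of the 33 genes, 27 had a CpG-rich promoter, against 52.5% of protein-coding genes. Motif shares among CpG-rich promoters alone were not computed.

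Within the 200 bases around a summit, the E-box was found at 3 of 11 WT peaks (beside 4.72% of all WT peaks) and at 3 of 16 3xTg peaks (beside 3.49%). It was at Wipi1 and Atg5 in both lists, at Atg10 in WT and at Atg7 in 3xTg. The Atg10 site also lies within the shared 3xTg peak, but outside the 200 bases around its summit. The antioxidant core was found at 2 WT peaks, of Atg13 and Txnrd1 (beside 8.55% of all), and at 2 3xTg peaks, of Gabarap and Txnrd1 (beside 8.45%). The Atg13 core also lies within the shared 3xTg peak, but outside the 200 bases around its summit. All peaks are an unlike background: their median CpG ratio was 0.36 in WT and 0.29 in 3xTg, against 0.73 and 0.69 at these genes. The E-box holds a CpG, and shares of these motifs among peaks of like CpG ratio were not computed. The sequences show where these letters stand, on the plus strand of GRCm38.p6. Capitals mark the stretch between the WT and 3xTg summits at Prdx1 (chr4:116693874-116693976, intron) and Gclc (chr9:77750487-77750552, upstream of the gene), the antioxidant core read on the minus strand at Txnrd1 (chr10:82858778-82858846, intron) and on the plus strand at Atg13 (chr2:91710806-91710844, upstream), the E-box at Wipi1 (chr11:109611956-109612021, upstream), and the RE1 blocks at Gabarapl2 (chr8:111941313-111941428, intron).
Prdx1: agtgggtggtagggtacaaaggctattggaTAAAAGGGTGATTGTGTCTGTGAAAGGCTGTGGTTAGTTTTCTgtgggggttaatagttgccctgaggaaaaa
Gclc: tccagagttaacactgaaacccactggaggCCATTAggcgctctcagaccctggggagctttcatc
Txnrd1: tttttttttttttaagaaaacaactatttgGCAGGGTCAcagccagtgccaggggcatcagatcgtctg
Atg13: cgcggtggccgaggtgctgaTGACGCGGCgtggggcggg
Wipi1: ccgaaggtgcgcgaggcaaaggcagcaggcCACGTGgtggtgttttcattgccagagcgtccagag
Gabarapl2: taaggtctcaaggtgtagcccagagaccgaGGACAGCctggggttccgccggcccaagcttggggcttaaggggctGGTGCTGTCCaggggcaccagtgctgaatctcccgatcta
At Atg13 the antioxidant core follows directly on the RE1 match, and at Gabarapl2 the left block is present on both strands, the copy on the plus strand overlapping the right block.

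Other genes of the same pathways were taken by role, also with earlier results of these data known. Of 34 further autophagy genes, 8 had a WT peak (23.5%) and 15 a 3xTg peak (44.1%), and of 35 further antioxidant genes 5 had a WT peak (14.3%) and 8 a 3xTg peak (22.9%), beside 10.3% and 15.7% of protein-coding genes and 15.8% and 23.5% of those with a CpG-rich promoter. In the 3xTg list, a fold enrichment over 10 was reached by 11 of the 34 autophagy and 6 of the 35 antioxidant genes, beside 9.41% of all genes. Atg4c, a protease that trims ATG8 proteins, had the strongest peak, with 21.7 in WT and 41.1 in 3xTg inside the gene, above any of the 39 genes. The cargo receptor gene Nbr1 reached 9.7 and 27.9 at its start site, the autophagy inhibitor gene Rubcn 14.9 and 23.0, and the pentose phosphate enzyme gene Tkt 11.3 and 23.4. A start site of Brca1 lay within 1 kb of the Nbr1 peaks. The others were Uvrag, Wdr45, Pink1, Tmem41b, Mtor, Txnrd2 and Txnip with shared peaks, Ambra1, Nrbf2, Vmp1, Fth1 and Ppargc1a with 3xTg peaks alone, and Msra. Msra had a WT-only peak (6.2) and a 3xTg-only peak (11.6) that lay 80.5 kb apart. Among 15 textbook REST targets, 10 had a WT peak and 11 a 3xTg peak, led by Celsr3 with 44.3 and 52.1 and Vgf with 28.2 and 43.4. In the 3xTg list, Celsr3, Vgf and Chgb (36.1) lay above the 24.2 of Prdx1, and the other textbook targets with a peak lay below it, among them Snap25, Scg2 (18.1) and Stmn2 (8.63). In the WT list, Snap25 (19.6) and Scg2 (12.7) lay above the 11.1 of Prdx1, as did Celsr3, Vgf and Chgb (18.9).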

How the data were processed

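Members and comparison lists were chosen with earlier results of these data known. REST ChIP-seq of bulk cortex was aligned by the authors to mm10, and peaks were called with MACS, filtered on fold enrichment and q, and freed of blacklisted regions. The lowest values of both lists lie above that filter and differ between the lists, and whether a further threshold was applied is not given in the sources used here. The submitters' processing notes name BWA for replicates 1 and 2 and the inputs and STAR 2.7.0a for replicates 3 and 4, whereas the study's methods name STAR. The authors deposited a combined list per genotype, with the fold enrichment ratio at each summit, the −log10 q-value, and the distance from the peak start to the summit. Peaks were placed on curated RefSeq transcripts of GRCm38.p6 with Python 3.11.15, leaving out chromosome Y because the mice were female. Shared peaks overlap by at least 1 base, and rank is by fold enrichment within a list. Sequences were read with pysam 0.24.0, and the placing of peaks and the motif scan were tested against bedtools 2.31.1 and on simulated data. Every gene of the set was named, and other pathway genes where fold enrichment was over 10. A gene of the comparison lists is not reported here and was left out of their counts. The CpG-rich background was chosen after seeing the data. No test was run here, because each list pools its replicates, and read depth is not given in the lists.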

Additional observations from a re-analysis of the deposited data

How the results depend on the processing

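No paired analysis was possible because each list pools the 4 replicates, and for the same reason no replicate could be left out. Of 121 values under alternatives, 85 stayed within 1.5 times the reported count or within the 95% Wilson interval of the reported share, and 36 moved. The threshold on peaks moved most. With fold enrichment over 10 in both lists, members with a WT peak fell to 1 and members with either peak to 10, WT peaks at members were 1 and 3xTg peaks 10, shared 3xTg peaks 1 and WT-only peaks 0, and the shares of all genes were 1.91% in WT and 9.41% in 3xTg. With the lowest fold enrichment of the 3xTg list applied to both lists, an alternative chosen after seeing the data, 3 members had a WT peak and 12 a 3xTg peak alone, WT peaks at members were 3, shared 3xTg peaks 3, 3xTg-only peaks 13 and WT-only peaks 0, and the WT share of all genes was 3.01%. With the 3xTg list shortened to the length of the WT list, 9 members had a 3xTg peak and 2 a 3xTg peak alone, with 9 3xTg peaks, 2 3xTg-only and 3 WT-only, and a share of 8.82%. So the number of 3xTg-only peaks depends on the thresholds of the lists. At these settings, the shares of all genes with a 3xTg peak alone or with either peak, and the 3xTg-only share of all peaks, were not computed. Requiring the overlap to reach 50% of each peak gave 4 WT-only peaks. The background shares, WT and 3xTg, were 7.57% and 11.6% with predicted transcripts, 10.3% and 15.7% for protein-coding genes, 6.72% and 9.87% for start sites within 5 kb, 5.32% and 7.84% within 1 kb, and 15.8% and 23.5% for genes with a CpG-rich promoter, where 3 members had a 3xTg peak alone. With at most 4 mismatches, RE1 matches at members were 0 in WT and 0 in 3xTg, and with at most 6 they were 2 in 3xTg. The stricter q-value limit removed no peak, since −log10 q began at 13.3 in the WT list and 29.0 in the 3xTg list.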
